A study of Mus musculus with 14 samples.

Results

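The genes described here are 10 chemokines that squamous carcinoma keratinocytes can secrete: Cxcl1, Cxcl2, Cxcl3, Cxcl5, Cxcl10, Cxcl16, Ccl2, Ccl5, Ccl7 and Ccl20. They were chosen by gene symbol from the non-control probes of a mouse expression array, which carry 11 probes for them, 2 of these for Cxcl10. The array names 34947 genes, of which 21356 were bright enough to test, and 8 of the 10 chemokines were among these. The cells were mSCC-38, a mouse skin squamous cell carcinoma line, cultured as dishes of 1 cell line with no leukocytes or stroma added. The 4 groups of total RNA samples were compared on 14 one-colour arrays. NT cells were not transfected (4 samples). SiC cells received a control siRNA (3 samples). The labels of all 3 name this treatment, but the title of replicate 1 is SiC1 and those of replicates 2 and 3 are NC2 and NC3. Si1AK cells (4 samples) and Si2AK cells (3 samples) each received a different siRNA against the long noncoding RNA AK144841. Transfected cells were collected after 72 h. AK144841 itself was not analysed here, so how far either siRNA lowered it is not shown by these values. The labels do not say whether the replicates of a group were separate cultures, so the p-values measure only sample-to-sample spread, part of which may be technical.

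Chemokines are small secreted proteins that bind G protein-coupled receptors on leukocytes and direct their migration. The CXC chemokines with an ELR motif, Cxcl1, Cxcl2, Cxcl3 and Cxcl5 here, bind Cxcr2 and attract neutrophils, while Ccl2 and Ccl7 bind Ccr2 and attract monocytes. Cxcl10 and Ccl5 are typical products of interferon-stimulated cells and attract T cells and natural killer cells. Cxcl16 is made as a transmembrane protein that binds Cxcr6, and Ccl20 is the ligand of Ccr6. In skin, keratinocytes make many of these genes after interleukin-1, interleukin-17 or tumour necrosis factor, through NF-kB and related factors.

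The 4 neutrophil chemokine probes lie on chromosome 5 within 144.1 kb (mm9, the build of the array design), and those of Ccl2 and Ccl7 lie within 10.1 kb on chromosome 11. RefSeq promoter windows of GRCm38.p6 were found for 5 of the 10 members, which are Cxcl1, Cxcl2, Cxcl3, Cxcl10 and Ccl20. The stretches just before the annotated start of Cxcl1 (chr5:90891095-90891244, plus strand), Cxcl2 (chr5:90903749-90903898, plus strand) and Cxcl3 (chr5:90785951-90786100, plus strand) are shown because these genes all rose with Si2AK in the data below. The stretch of Cxcl10 (chr5:92348890-92349109, minus strand) is shown beside them as the window with the most matches whose gene was not measurable on most arrays. Capitals mark matches to the NF-kB consensus, to the AP-1 consensus TGANTCA or to the interferon response element (ISRE) GAAANNGAAA.
Cxcl1: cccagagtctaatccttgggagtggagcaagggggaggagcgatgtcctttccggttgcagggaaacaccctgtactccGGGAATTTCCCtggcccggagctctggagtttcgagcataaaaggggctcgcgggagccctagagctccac
Cxcl2: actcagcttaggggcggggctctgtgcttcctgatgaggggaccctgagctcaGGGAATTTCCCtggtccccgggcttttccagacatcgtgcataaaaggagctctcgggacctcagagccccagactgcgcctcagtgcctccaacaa
Cxcl3: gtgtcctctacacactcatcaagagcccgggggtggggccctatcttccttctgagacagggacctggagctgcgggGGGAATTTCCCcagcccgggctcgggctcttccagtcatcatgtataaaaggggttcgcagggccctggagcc
Cxcl10: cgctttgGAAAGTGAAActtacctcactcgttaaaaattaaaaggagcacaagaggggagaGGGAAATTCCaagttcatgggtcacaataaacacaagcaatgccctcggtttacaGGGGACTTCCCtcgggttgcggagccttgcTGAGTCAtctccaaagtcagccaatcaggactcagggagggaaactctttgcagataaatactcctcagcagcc
Cxcl1, Cxcl2 and Cxcl3 share the run GGGAATTTCCC, which starts 71, 97 and 73 bases before their starts. On either strand, 14 of 32851 promoter windows in the table (0.0426%) hold that run in the 250 bases before the start. In each of the 3 genes the NF-kB consensus matches it once per strand, in matches offset by 1 base. At least 1 match to the NF-kB consensus was found in all 5 windows, against 7.25% of all windows searched in the same way on both strands. AP-1 and ISRE matches were found only in the Cxcl10 window among these 5, against 6.75% and 2.98% of all windows. The array data do not bear on which factors bind these letters.

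**Figure D1:**
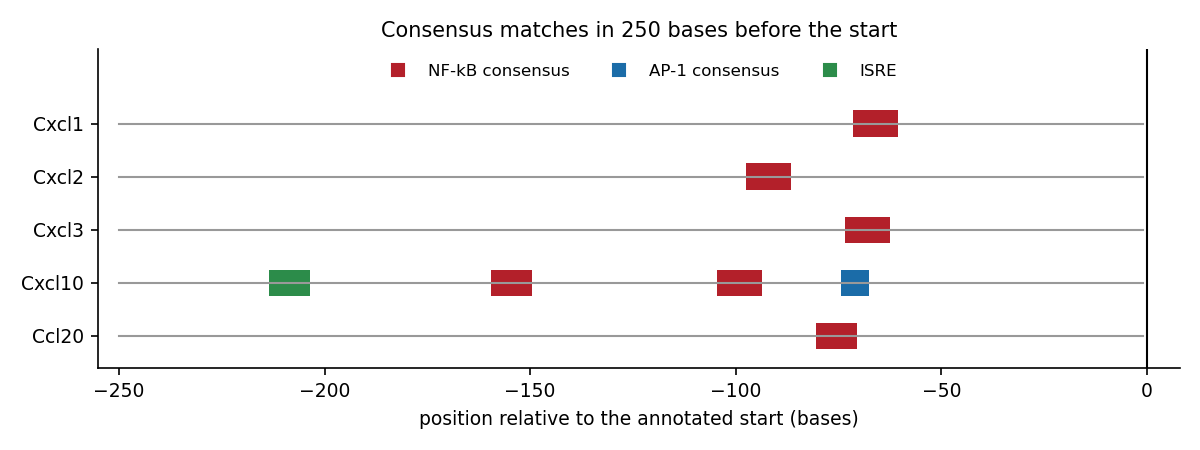
Matches to 3 consensus motifs in the 250 bases before the annotated start of 5 chemokine genes. The x axis is the position in bases relative to the start, each grey line is 1 gene's window, and coloured blocks are matches on either strand. The NF-kB matches of Cxcl1, Cxcl2, Cxcl3 and Ccl20 lie in the last 97 bases before the start, and Cxcl10 also holds an AP-1 and an ISRE match.

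Levels are log2 processed signals minus the 75th percentile of the same array, so 0 is the level of a probe at that percentile, and a level of 1 probe cannot be set against that of another. SiC replicate 1 and Si2AK replicate 2 stood apart from the other 12 arrays. Their median signals were 270.9 and 107.5, against 23.5 to 58.7 elsewhere, and 90.2% and 84.5% of their probes were well above background, against 51.7% to 59.3%. Values without both are given beside results that they move. No spot used was saturated. Keratinocyte markers were measured well above background on all 14 arrays for 12 of 14 genes, with Krt5 and Krt14 among them, while Dsg3 reached this on 8 arrays and the E-cadherin gene Cdh1 on 2. Of 15 leukocyte markers, 7 were well above background on all 14 arrays, with Itgam, Ly6g and Cd68 among them, and the pan-leukocyte gene Ptprc reached this on 3 arrays and Laptm5 and Lyz2 on 2.

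With Si2AK, all 4 neutrophil chemokines rose over the control siRNA, by 1.62-fold for Cxcl3 to 9.56-fold for Cxcl2, and so did Cxcl16, by 2.45-fold. The monocyte chemokines Ccl2 and Ccl7 and the interferon-type chemokine Ccl5 did not pass the test. With Si1AK, 0 of the 8 measured chemokines passed, and 7 of the 8 differences were negative. In the Si2AK comparison 5 of 8 members were called higher at a limma adjusted p below 0.05, where 8.52% of all tested genes were called higher and 13.2% in either direction. Their median log2 difference was 0.95, against -0.02 over all tested genes. In the Si1AK comparison 4.39% of all genes were called, and the members' median was -0.24 against -0.06. For that comparison 1 member, Ccl7, had an unadjusted p below 0.05 in limma, where 18.8% of all genes did. A fit with array weights, which gives noisier arrays less weight, called 6 members lower. That fit called 3746 of 21356 genes lower and 33.7% of all genes in either direction.

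**Figure D2:**
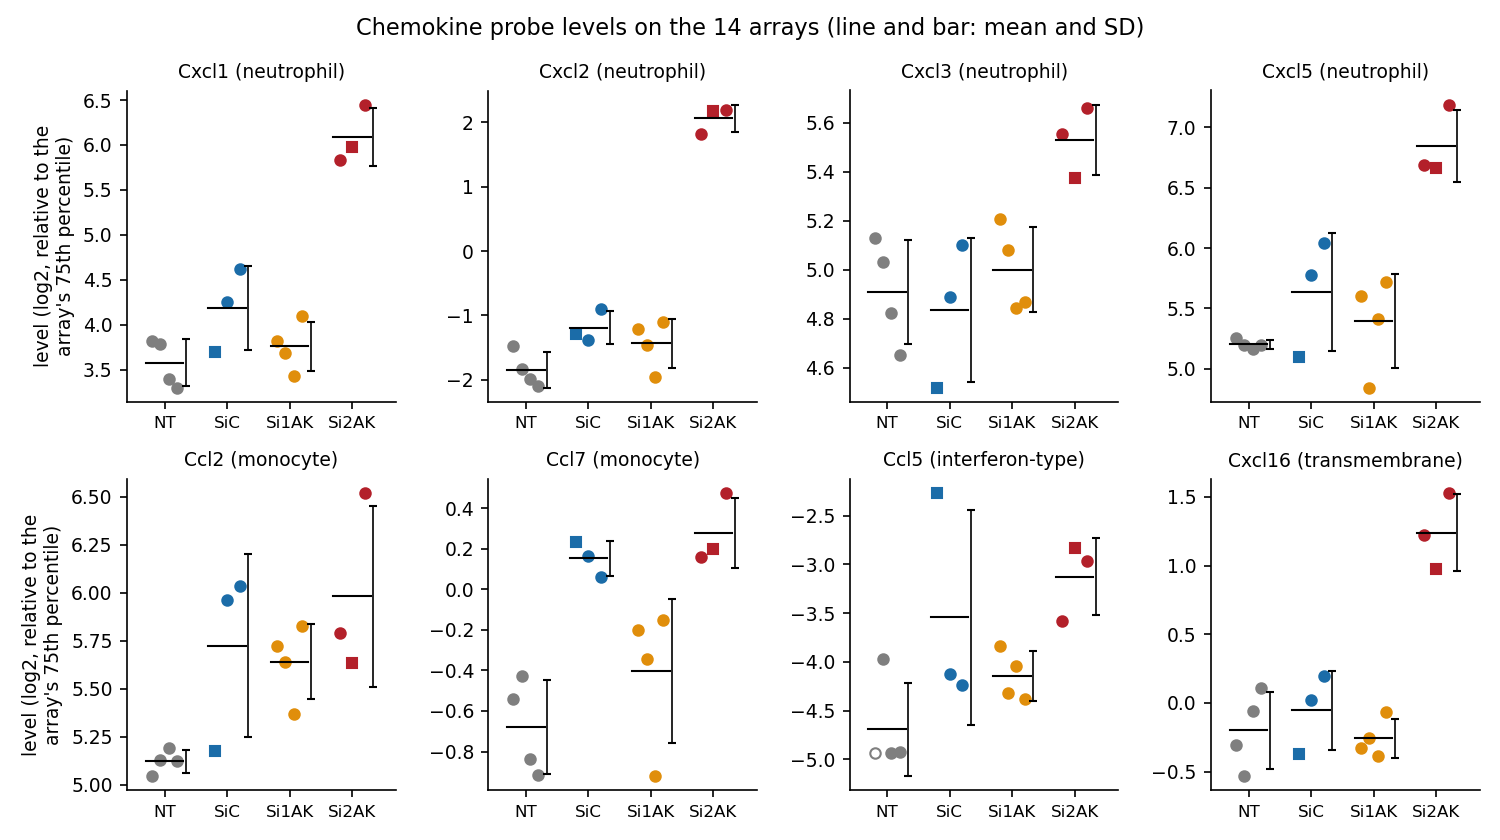
Levels of the 8 tested chemokines on the 14 arrays, 1 panel per gene, with the level on the y axis in log2 units relative to the array's 75th percentile. Points are arrays, squares are SiC replicate 1 and Si2AK replicate 2, an open point is not well above background, and lines and bars give the mean and SD of a group. All 3 Si2AK arrays lie above the other 11 for Cxcl1, Cxcl2, Cxcl3, Cxcl5 and Cxcl16. The share of all genes with this pattern was not counted.

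Cxcl2, a strong Cxcr2 ligand also known as MIP-2, changed most among the members. Its levels (probe at chr5:91334534-91334593, mm9) were -1.47, -1.83, -1.99 and -2.10 in NT, -1.30, -1.39 and -0.90 in SiC, -1.22, -1.46, -1.96 and -1.11 in Si1AK, and 1.81, 2.18 and 2.19 in Si2AK. The 3 Si2AK arrays stood more than 2 log2 units above all others, and the remaining groups lay close together, with Si1AK overlapping both SiC and NT. The log2 difference of Si2AK from SiC was 3.26 ± 0.23 (SE), or 9.56-fold with a 95% interval of 6.72 to 13.6 (limma, adjusted p = 2.264e-05). This was the rank 2 increase among the 21356 genes tested. Si1AK differed from SiC by -0.24 ± 0.22 (adjusted p = 0.547), with an interval from -0.71 to 0.24 that ends well below the Si2AK interval.

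Cxcl1, the mouse neutrophil attractant also called KC, followed the same order. Its levels (chr5:91321845-91321904) were 3.81, 3.78, 3.40 and 3.30 in NT, 3.69, 4.25 and 4.62 in SiC, 3.82, 3.69, 3.43 and 4.09 in Si1AK, and 5.84, 5.98 and 6.45 in Si2AK. The lowest Si2AK array lay above the highest SiC array, while SiC overlapped NT and Si1AK. The difference of Si2AK from SiC was 1.90 ± 0.26, or 3.73-fold with an interval of 2.54 to 5.49 (limma, adjusted p = 0.0007709). That ranked 48 among all increases. With Si1AK the difference was -0.43 ± 0.24 (adjusted p = 0.349).

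Cxcl5, the keratinocyte- and fibroblast-made Cxcr2 ligand also called LIX, gave levels (chr5:91190490-91190549) of 5.26, 5.19, 5.16 and 5.20 in NT, 5.10, 5.78 and 6.04 in SiC, 5.61, 4.85, 5.42 and 5.72 in Si1AK, and 6.69, 6.66 and 7.19 in Si2AK. NT values were within 0.1 of each other, and SiC and Si1AK were spread over about 1 unit and overlapped. Si2AK exceeded SiC by 1.21 ± 0.26, or 2.31-fold (interval 1.56 to 3.42; limma, adjusted p = 0.0102), and Si1AK differed from SiC by -0.24 ± 0.24 (adjusted p = 0.582).

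Cxcl3, the remaining Cxcr2 ligand of the cluster, moved least. Its levels (chr5:91216694-91216753) were 5.13, 5.03, 4.83 and 4.65 in NT, 4.52, 4.89 and 5.10 in SiC, 5.20, 5.08, 4.85 and 4.87 in Si1AK, and 5.55, 5.38 and 5.66 in Si2AK. The Si2AK arrays were again the highest 3, but the gap to the highest Si1AK array was small. Si2AK exceeded SiC by 0.69 ± 0.17, or 1.62-fold (interval 1.25 to 2.09; limma, adjusted p = 0.0195). This call was lost without both arrays of raised signal (0.61 ± 0.17, adjusted p = 0.0542), and also without SiC replicate 1, Si2AK replicate 1 or Si2AK replicate 3 (0.54, 0.68 and 0.63, adjusted p = 0.0544, 0.0616 and 0.0668). The Cxcl1, Cxcl2, Cxcl5 and Cxcl16 calls held without both arrays of raised signal, at 1.71, 3.15, 1.03 and 1.27 log2 units (adjusted p = 0.00455, 0.000479, 0.034 and 0.00447). With only Si2AK and SiC fitted, the Cxcl1, Cxcl3, Cxcl5 and Cxcl16 calls were lost (limma, adjusted p = 0.0729, 0.168, 0.142 and 0.0833). That fit called 0.421% of all genes.

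Cxcl16, the transmembrane ligand of Cxcr6 that metalloproteases such as Adam10 can shed, was measured on chromosome 11 (chr11:70267780-70267839). Its levels were -0.31, -0.53, -0.06 and 0.11 in NT, -0.37, 0.02 and 0.19 in SiC, -0.33, -0.25, -0.39 and -0.07 in Si1AK, and 1.22, 0.97 and 1.53 in Si2AK. NT, SiC and Si1AK shared 1 range and the Si2AK arrays lay above it. Si2AK exceeded SiC by 1.29 ± 0.20, or 2.45-fold (interval 1.82 to 3.30; limma, adjusted p = 0.00158), and Si1AK differed from SiC by -0.21 ± 0.18 (adjusted p = 0.538). Adam10 mRNA differed from SiC by 0.16 ± 0.15 with Si2AK (adjusted p = 0.602).

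The monocyte chemokines did not pass the test against SiC with either siRNA. Ccl2, also called MCP-1, has 10 spots on the array, which were averaged. Its levels (chr11:81850650-81850709) were 5.04, 5.13, 5.19 and 5.12 in NT, 5.18, 5.96 and 6.04 in SiC, 5.72, 5.64, 5.37 and 5.83 in Si1AK, and 5.79, 5.63 and 6.52 in Si2AK. All 3 transfected groups overlapped, and the NT arrays were tight, with SiC replicate 1 at their level. Ccl2 differed from SiC by 0.26 ± 0.25 with Si2AK (interval -0.29 to 0.80; limma, adjusted p = 0.620) and by -0.09 ± 0.23 with Si1AK (adjusted p = 0.854).

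Ccl7, also called MCP-3, gave levels (chr11:81860656-81860715) of -0.54, -0.43, -0.84 and -0.91 in NT, 0.23, 0.17 and 0.06 in SiC, -0.20, -0.34, -0.92 and -0.15 in Si1AK, and 0.16, 0.20 and 0.47 in Si2AK. SiC and Si2AK overlapped, and every Si1AK array lay below every SiC array. Si2AK differed from SiC by 0.12 ± 0.20 (adjusted p = 0.802). The difference of Si1AK from SiC was -0.56 ± 0.18, which did not pass the adjustment over all genes (limma, adjusted p = 0.122).

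The interferon-type members were dim. Ccl5, also called RANTES, was well above background on 13 of the 14 arrays, all but NT replicate 1 (chr11:83339296-83339355). Its levels were -4.94, -3.97, -4.94 and -4.92 in NT, -2.27, -4.12 and -4.23 in SiC, -3.83, -4.32, -4.04 and -4.39 in Si1AK, and -3.58, -2.83 and -2.96 in Si2AK. SiC replicate 1, an array of raised signal, was the highest of all 14, and the other 2 SiC arrays lay below every Si2AK array. Si2AK differed from SiC by 0.42 ± 0.46 (limma, adjusted p = 0.679), and by 0.91 ± 0.34 without both arrays of raised signal (adjusted p = 0.128). With array weights it passed, at 1.03 ± 0.26 (adjusted p = 0.0154). The slide 1 value, which rests on SiC replicate 1 alone as control, was -0.94, and the slide 2 value was 1.22, so the direction for Ccl5 turned between slides.

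Neither Cxcl10 nor Ccl20 was tested. Of the 2 Cxcl10 probes, 1 (chr5:92775781-92775840) was well above background on SiC replicate 1 and on Si2AK replicates 2 and 3, and the other (chr5:92776616-92776675) on SiC replicate 1 and Si2AK replicate 2. Thus 3 arrays gave a Cxcl10 reading, including both arrays of raised signal, and all NT and Si1AK arrays were not well above background. The Ccl20 probe (chr1:83115682-83115741) was not well above background on any of the 14 arrays. No fold change is given for either gene.

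**Figure D3:**
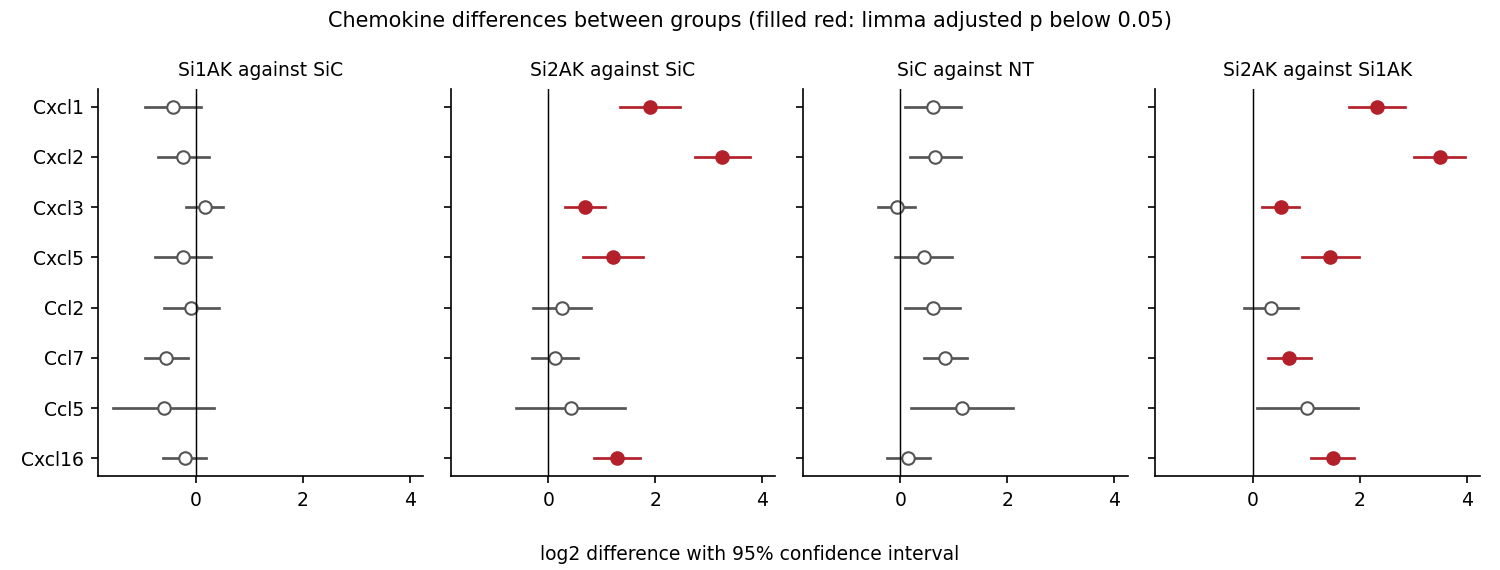
Log2 differences of the 8 tested chemokines (x axis) in 4 comparisons, with 95% confidence intervals as bars. Filled red points passed a limma adjusted p below 0.05: 0 of 8 for Si1AK against SiC, 5 for Si2AK against SiC, 0 for SiC against NT and 6 for Si2AK against Si1AK.

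The 2 siRNAs were also compared directly. The size of this difference does not use the control arrays, but its SE and p-value rest on the spread over all 14 arrays. Among the 8 members, 6 were higher in Si2AK than in Si1AK, where 6.33% of all tested genes were higher and 12.5% differed in either direction. The differences were 3.50 ± 0.22 for Cxcl2 (11.3-fold, adjusted p = 3.86e-06) and 2.33 ± 0.24 for Cxcl1 (5.03-fold, adjusted p = 0.000109). Cxcl16 and Cxcl5 followed at 1.50 ± 0.18 and 1.45 ± 0.24 (adjusted p = 0.000323 and 0.00229). Ccl7 and Cxcl3 passed narrowly, at 0.68 ± 0.18 and 0.53 ± 0.16 (adjusted p = 0.0309 and 0.0491), and the Cxcl3 call was lost when any of the 7 arrays was left out. The Ccl7 call was lost without Si1AK replicate 2 or any 1 Si2AK array. It was also lost without both arrays of raised signal and with only these groups fitted (limma, adjusted p = 0.0545 and 0.08). Ccl2 and Ccl5 differed by 0.34 ± 0.23 and 1.02 ± 0.43 (adjusted p = 0.434 and 0.172), and all 3 Si2AK arrays exceeded all 4 Si1AK arrays for Ccl5. The Ccl5 difference passed with array weights, with only these groups fitted and on slide 2 (adjusted p = 0.0489, 0.0294 and 0.0499).

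Transfection with the control siRNA was set against untransfected cells to show the background that the siRNA comparisons share. No gene on the array was called in this comparison by limma (0% of 21356), and 7.42% had an unadjusted p below 0.05. Among the 8 members 5 had an unadjusted p below 0.05, all higher in SiC, which were Cxcl1 (0.61 ± 0.24), Cxcl2 (0.65 ± 0.22), Ccl2 (0.60 ± 0.23), Ccl7 (0.83 ± 0.18) and Ccl5 (1.15 ± 0.43), all with an adjusted p of 0.636. Without both arrays of raised signal the Ccl5 difference was 0.51 ± 0.29 (adjusted p = 0.843), and the highest SiC level for Ccl5, -2.27, is that of replicate 1. Every SiC array lay above every NT array for Cxcl2 and Ccl7. How many of all genes were separated like this, here or in the other comparisons, was not counted. With array weights Ccl2 and Cxcl1 passed, at 0.903 and 1.003 (adjusted p = 0.0279 and 0.032), where that fit called 0.632% of all genes. Slide by slide, the Ccl7 difference was 0.72 and 0.99, whereas the Cxcl1 difference was -0.10 on slide 1 and 1.08 on slide 2. The only SiC array on slide 1 was replicate 1, an array of raised signal.

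Against NT, which shares the Si2AK arrays with the comparison against SiC, all 8 members were called higher in Si2AK, where 7.97% of all genes were higher and 15.6% differed in either direction. Cxcl2 and Cxcl1 were 15.0-fold and 5.70-fold higher, and Ccl2 and Ccl7, not called against SiC, were 1.82-fold and 1.94-fold higher (adjusted p = 0.027 and 0.00445). The Ccl2, Ccl5 and Cxcl3 calls were each lost under at least 8 of the other settings tried. Leaving out NT replicate 4 or Si2AK replicate 3 left 5 members called in place of 8, where 13.7% and 12.2% of all genes were called. Si1AK against NT gave 0 of 8 members called by limma, where 7.07% of all genes were called. Ccl2 alone had an unadjusted p below 0.05 there, at 0.52 ± 0.22 (adjusted p = 0.192), with all 4 Si1AK arrays above all 4 NT arrays, and it passed without both arrays of raised signal (adjusted p = 0.0438).

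The 14 arrays lay on 2 slides, each with arrays of all 4 groups. Within slide 1 the differences of Si2AK from SiC were 2.21 for Cxcl1, 3.29 for Cxcl2, 0.94 for Cxcl3, 1.58 for Cxcl5 and 1.46 for Cxcl16. Within slide 2 they were 2.02, 3.34, 0.67, 1.28 and 1.42 in the same order. On each slide 1 of the groups had a single array, SiC replicate 1 on slide 1 and Si2AK replicate 3 on slide 2. Both arrays of raised signal, SiC replicate 1 and Si2AK replicate 2, were on slide 1. In comparisons with SiC, a change between slides therefore cannot be told apart from the raised signal of SiC replicate 1. For Si1AK against SiC, Cxcl1, Cxcl3, Cxcl5, Cxcl16 and Ccl2 were positive on slide 1 (0.06 to 0.62) and negative on slide 2 (-0.67 to -0.14), and none passed on either slide. With array weights, 6 members were called lower with Si1AK than with SiC, Cxcl1 at -0.84 (adjusted p = 0.000459) furthest, and that fit called 33.7% of all genes.

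**Figure D4:**
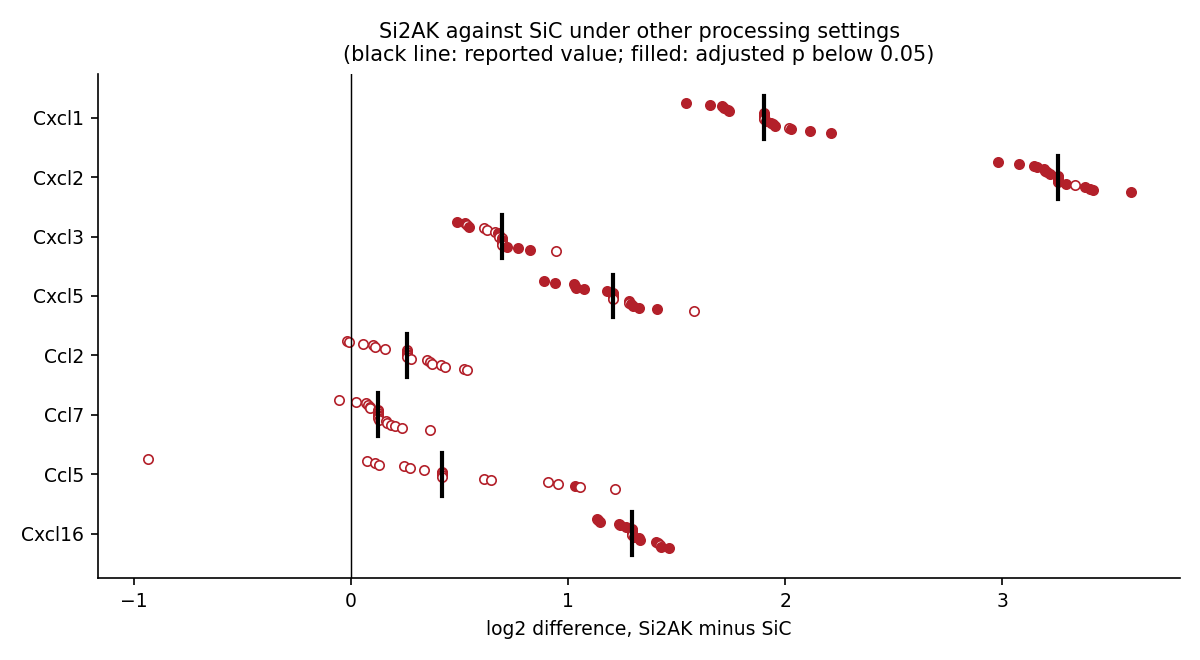
Log2 difference of Si2AK from SiC (x axis) for the 8 tested chemokines under each other processing setting (points) and as reported (black lines). Filled points passed an adjusted p below 0.05. Cxcl1, Cxcl2, Cxcl3, Cxcl5 and Cxcl16 stayed above 0 in all settings, whereas Ccl2, Ccl7 and Ccl5 crossed 0.

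Across the 14 arrays the members fell into a correlated core and a looser rest. These correlations are descriptions over arrays that share groups, and the step between Si2AK and the other groups is part of each. Pearson's r was 0.98 for Cxcl1 with Cxcl2, 0.96 for Cxcl1 with Cxcl5, and 0.92 to 0.93 for Cxcl16 with Cxcl1, Cxcl2 and Cxcl5. Cxcl3 correlated at 0.80 to 0.84 with the other neutrophil chemokines. The lowest values were those of Ccl5 with Cxcl3 (0.27) and Ccl2 (0.32), and over the 12 arrays without raised signal they were 0.78 and 0.75.

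The 3 genes with the most similar pattern to each member were then taken from the 14441 other genes with a symbol and full data. For Cxcl1 they were Cxcl2, Ptgs2 and Ereg (r = 0.98, 0.97 and 0.97), and for Cxcl2 they were Gadd45a, Ptgs2 and Ereg (0.98 each). Ptgs2 encodes cyclooxygenase 2 and Ereg the EGF receptor ligand epiregulin. Cxcl5 lay nearest Atf3, Casp4 and Cxcl1 (0.96 each), and Cxcl16 nearest Serpinb9f, Icosl and Dvl1 (0.98, 0.98 and 0.97). Cxcl3 lay nearest Ccdc71l, Lrrc8a and Prdm2 (0.94, 0.94 and 0.935), and Ccl2 nearest Ikbke, Cebpd and Hbp1 (0.87, 0.87 and 0.85). Ccl7 lay nearest Mcub, Lif and Nfkb1 (0.83, 0.82 and 0.82), where Nfkb1 encodes an NF-kB subunit. Ccl5 lay nearest Car2, A4galt and Pla2g2f (0.92, 0.92 and 0.91), which over the 12 arrays were 0.81, 0.82 and 0.82.

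Of 28 other chemokine genes, 27 are on the array, 12 were bright enough to test and 11 were well above background on all arrays. With Si2AK 3 of these 12 rose and 1 fell against SiC, with a list median of -0.17, where over all tested genes 8.52% rose and the median was -0.02. Ppbp, which encodes the precursor of the further Cxcr2 ligand Cxcl7, rose by 1.81 ± 0.20, or 3.51-fold (limma, adjusted p = 0.000294). Ccl27a, the keratinocyte ligand of Ccr10, rose by 0.79 ± 0.11, and the Ccr4 ligand Ccl17 rose by 0.39 ± 0.10 (adjusted p = 0.000957 and 0.0187). Ccl9 fell by 0.63 on the log2 scale (adjusted p = 0.0214). Without both arrays of raised signal 2 of the 12 were called, both higher, where 9.87% of all genes were called. Cxcl11, a Cxcr3 ligand like Cxcl10, was well above background on all 14 arrays and differed from SiC by -0.23 (adjusted p = 0.407), while Cxcl9 was so on 3 arrays. With Si1AK 0 of the 12 passed in limma and 3 had an unadjusted p below 0.05, with a median of -0.04.

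Most chemokine receptors were not well above background in these cells. Of 23 receptor genes, 9 were tested and 3 were well above background on all arrays. Cxcr2, the receptor of the neutrophil chemokines, reached that on 6 arrays and Cxcr1 on 1. Ackr3, a scavenging receptor of Cxcl12, was the only receptor gene called against SiC, where 13.2% of all genes were called with Si2AK and 4.39% with Si1AK, and it moved in opposite directions, higher with Si1AK by 0.57 ± 0.11 and lower with Si2AK, by -0.39 ± 0.11 (limma, adjusted p = 0.0115 and 0.0388). The list medians against SiC were -0.96 with Si1AK and -0.26 with Si2AK, against -0.06 and -0.02 over all tested genes, and most tested receptors were dim. SiC replicate 1, an array of raised signal, is part of both list medians, and medians without it were not computed.

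Of 34 genes for inducing cytokines, their receptors and NF-kB, 33 were tested. With Si2AK 10 rose and 0 fell against SiC, with a list median of 0.29, beside 8.52% of all tested genes that rose. Il1a, the interleukin-1 alpha gene, rose by 1.61 ± 0.19, or 3.05-fold, and Il17rc, a subunit of the interleukin-17 receptor, by 1.26 ± 0.11, or 2.39-fold (limma, adjusted p = 0.000406 and 8.748e-05). Tnfaip3, an NF-kB feedback inhibitor, rose by 0.91 ± 0.22, and Ticam1, a Toll-like receptor adaptor, by 0.79 ± 0.14 (adjusted p = 0.02 and 0.00415). Il1b, the interleukin-1 beta gene, rose by 0.78 ± 0.13 with Si2AK and, with Si1AK, fell by 0.53 in log2 level (adjusted p = 0.00259 and 0.0302), the only gene of the list called with Si1AK. The other 5 genes that rose with Si2AK were Bcl3, Nfkb2, Nfkbia, Nfkbib and Relb, at 0.46 to 0.76. Without both arrays of raised signal 6 of the 33 were called with Si2AK, all higher, and 0 with Si1AK. Over all genes that fit called 9.87% with Si2AK and 4.64% with Si1AK. The list median with Si1AK was 0.04. In limma 1 of the 33 was called with Si1AK, where 4.39% of all genes were. An unadjusted p below 0.05 was found for 8 of the 33, where 18.8% of all genes had one.

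Of 18 tested genes of the interferon axis, 0 were called with Si2AK against SiC by limma and 2 had an unadjusted p below 0.05, with a list median of 0.07, where 13.2% of all genes were called. Against NT, 3 of the 18 were higher in Si2AK (Ddx58, Ifngr2 and Tyk2, at 0.32 to 0.41) and Socs1 was lower, at -0.50, where 15.6% of all genes were called. Irf1, Irf7 and Stat2 differed from SiC by 0.11, 0.09 and 0.26 (adjusted p = 0.615, 0.953 and 0.299). With Si1AK 1 of 18 passed, Ddx58, which encodes the RNA sensor RIG-I, at 0.44 ± 0.10 (adjusted p = 0.0271), and 0 passed without both arrays of raised signal. Over all genes 4.39% were called with Si1AK, and 4.64% without both these arrays. Of 13 tested genes that act on chemokine mRNA decay or protein processing, 2 rose with Si2AK and 0 were called with Si1AK (3 at an unadjusted p below 0.05), with list medians of 0.16 and -0.03, where 8.52% of all genes rose with Si2AK and 4.39% were called with Si1AK. Zc3h12a, an RNase that degrades inflammatory mRNAs, rose by 1.09 ± 0.23, and Zfp36l1, an AU-rich element binding protein, by 0.50 ± 0.12 (limma, adjusted p = 0.0104 and 0.0207).

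**Figure D5:**
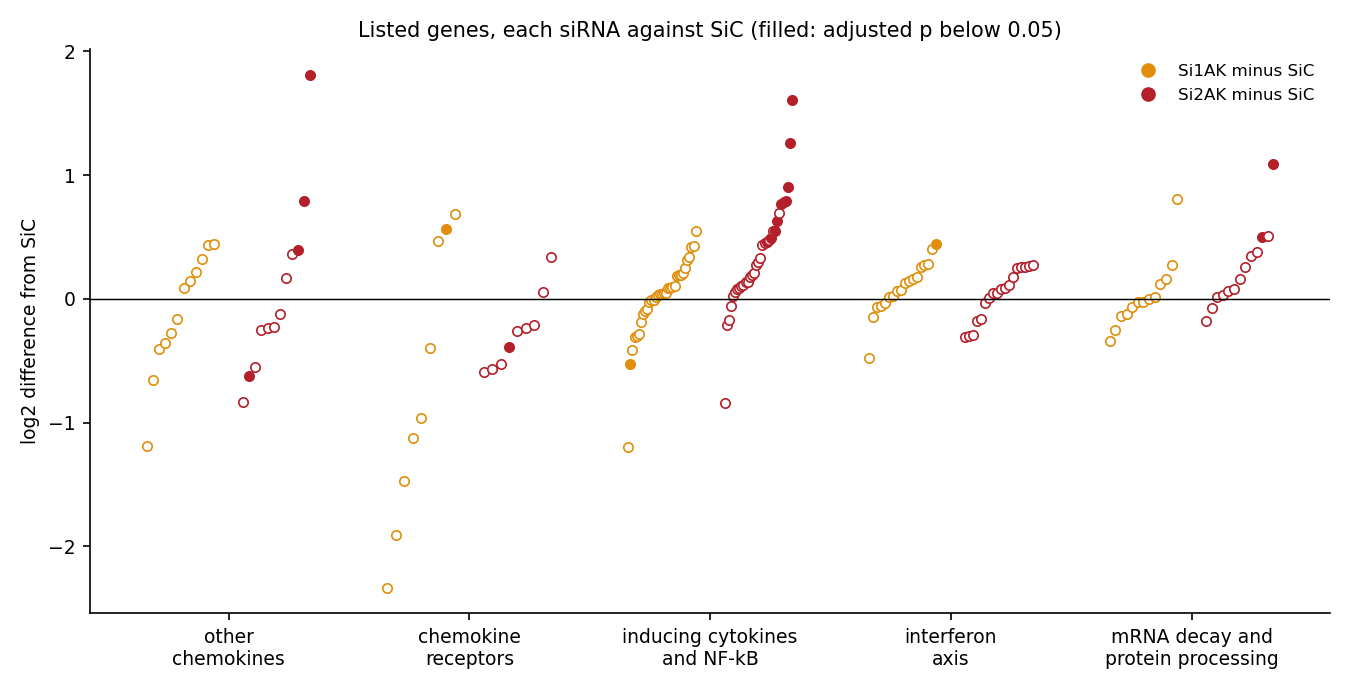
Log2 difference from SiC (y axis) of each tested gene in 5 lists, for Si1AK (orange) and Si2AK (red), ordered by value within each list. Filled points passed an adjusted p below 0.05. The inducing cytokine and NF-kB list holds 10 filled red points, all above 0, and the interferon list holds none.

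Markers of cell identity moved beside these genes. With Si2AK, 8 of 13 tested keratinocyte markers were higher than in SiC and 0 lower, among them Krt16, where 8.52% of all genes were higher. Dsg3, 1 of the 8, was well above background on every array of Si2AK but of no other group. It thus entered the test only through the group where it was high. Summed linear levels, here and below, take all markers of a cell type on the array, tested or not, and weight the brightest probes most. The keratinocyte sum was 1196 to 1236 in Si2AK against 821.5 to 1066 in SiC. The lowest SiC sum was that of replicate 1, and the other 2 were 980.05 and 1066. Against NT 3 of the 13 were higher in Si2AK, Dsg3 among them, and the NT sums of 1066 to 1225 overlapped those of Si2AK. Of the 8 tested leukocyte markers 0 were called against SiC by limma and 2 had an unadjusted p below 0.05, where 25.5% of all genes did. The summed level of the 15 leukocyte markers on the array was 20.7 to 22.5 in Si2AK against 22.4 to 26.3 in SiC. Fibroblast markers summed to 1.55 to 2.07 in Si2AK and 1.01 to 1.80 in SiC. The SiC high was replicate 1, and the other 2 SiC arrays, at 1.01 and 1.14, lay below every Si2AK array. Melanocyte markers summed to 3.87 to 4.16 in Si2AK and 2.35 to 2.65 in SiC. Mitf had levels of 0.39 to 1.97 over the 14 arrays and the other melanocyte markers stayed below 0, so the sum mostly follows Mitf. The 4 tested melanocyte markers had a median log2 difference of -0.29 from SiC. In all, 1 of 5 tested fibroblast and 1 of 4 tested melanocyte markers were called higher, Pdgfra and Mitf, where 8.52% of all genes were higher. The other tested fibroblast markers were not called and were mixed in sign, from -0.58 for Col1a2 to 0.59 for Dcn. Endothelial markers summed to 8.86 to 11.6 in Si2AK and 8.43 to 9.62 in SiC, with 0 of 4 called and 0 at an unadjusted p below 0.05 in limma. The part of these shifts in the chemokine differences was not tested. In such bulk RNA, a change in the number of cells that express a gene and a change in RNA per cell cannot be told apart.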

How the data were processed

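Total RNA (0.2 µg, RNA integrity number 9 per the labels) of 14 samples was hybridised to one-colour Agilent arrays. The deposited scanner files hold spot intensity values made with Feature Extraction 10.7.3.1, per the file headers, with marks for spots well above background. A table of log2 values, also deposited by the authors, covers the same 14 arrays and is centred near a median of 6.51 by a step not given in the sources used here, and limma is named in the submitters' processing notes.

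Levels were log2 processed signals minus each array's 75th percentile. Spots of a probe were averaged, flagged outlier spots were left out, and 30299 of 55681 probes were kept that were well above background on all arrays of at least 1 group. The brightest probe stood for a gene (21356 genes). Groups were compared with limma 3.58.1 (lmFit and eBayes in R 4.3.3, all 14 arrays, 10 residual degrees of freedom before moderation), with Benjamini-Hochberg adjustment over all genes and a threshold of 0.05. The number of arrays limits the precision. The fit was tested on simulated data. Members and gene lists were chosen with earlier results of these data known. All members are named, as are up to 4 called genes per list, direction and comparison against SiC, and the 3 genes most correlated with each member; Adam10, Cxcl11, Cxcl9, Irf1, Irf7, Stat2, Ifngr2, Tyk2, Socs1 and the further NF-kB genes were named after their values were seen.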

Additional observations from a re-analysis of the deposited data

Results flagged for a closer look

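Of the 8 tested members, 6 differed between the 2 siRNAs in the direct test of Si2AK against Si1AK in limma, where 12.5% of all tested genes did. The Ccl7 and Cxcl3 calls were lost in 10 and 14 of 20 other settings. The log2 differences were 3.50 for Cxcl2, 2.33 for Cxcl1, 1.50 for Cxcl16, 1.45 for Cxcl5, 0.68 for Ccl7 and 0.53 for Cxcl3. The control arrays cancel in this difference, but its p-values rest on the spread over all 14 arrays.

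Single arrays were checked against the others of their group in the 22 probe and group combinations that had 4 arrays, where chance alone flags about 1 in 20. For Ccl5, NT replicate 2 had a level of -3.975, and its gap to the nearest of the other 3 NT arrays was 0.98 of the group's range. For Ccl20, NT replicate 3 had a level of -7.961, with a gap of 0.841 of the range, on a probe not well above background on any array.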

How the results depend on the processing

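The 27 other settings comprised 14 that leave out 1 array, and 1 further setting for the gene lists was chosen after seeing the data. None of the 954 member differences recomputed was reversed where a call was involved. The call was kept or stayed absent in 870, was lost in 69 and was gained in 15. Of 565 that were uncalled both ways, 34 had the opposite sign. The count of members called with Si1AK against SiC went from 0 to 6 with array weights, and over all genes that fit called 3453 higher and 3746 lower in place of 677 and 260. The count for Si2AK against SiC went from 5 to 1 when only the groups compared were fitted, which leaves fewer arrays for the spread. With array weights the count was 6. Over all genes these 2 fits called 0.421% and 21.7%, in place of 13.2%. Fits of 1 slide alone leave a single array in SiC or Si2AK, so no counts are given for them. For SiC against NT the count went from 0 to 2 with array weights, where that fit called 0.632% of all genes in place of 0%. For Si1AK against NT the count went from 0 to 1 with array weights, with only the groups compared, and without both arrays of raised signal. Over all genes these fits called 17.9%, 10.4% and 14.6%, in place of 7.07%. With Si2AK against NT it went from 8 to 5 with no filter on dim probes, to 3 on slide 1 only and to 5 on slide 2 only, and ranged from 5 to 7 when 1 array was left out. On slide 1 only, the differences of Si2AK from Si1AK were 1.45 for Cxcl5, 0.45 for Ccl7 and 0.32 for Cxcl3. Over both slides they were 1.45, 0.68 and 0.53. The cause of these changes was not tested.

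The replicate block left 5 members called for Si2AK against SiC, 4 in place of 6 for Si2AK against Si1AK and 6 in place of 8 for Si2AK against NT. Over all genes it called 12.5%, 11.5% and 13.3% in these comparisons, in place of 13.2%, 12.5% and 15.6%. The replicate numbers share only a number: deviations of same-numbered arrays correlated above 0.1 in 12 of 19 pairs (-0.68 to 0.72), and 5 of 14 arrays correlated best with their own number. A lone array left in a group is assumed to vary like the other groups. Cxcl10 and Ccl20 are limited by signal over background.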
